A study of Mus musculus with 19 samples.

Results

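The combined loss of the Mediator kinases CDK8 and CDK19 was compared with the sum of the 2 single losses in mouse bone marrow, gene by gene. The measure is the step from CDK8KO to DKO minus the step from WT to CDK19KO, on the scale log2(normalized count + 1). It is 0 where the combined loss gives the summed log2 changes of the single losses, positive where DKO is higher than that sum and negative where it is lower, and it is called the departure here. Of the 34432 genes listed, the 13976 whose normalized counts averaged 10 or more across the 19 libraries entered the test. At the edge of this filter, Slc22a18 with a mean of 10.01 was kept (departure -1.16) and Olfr312 with a mean just under it was not (departure -0.78). The departure rests on 15 of the 19 libraries, and the 4 libraries of Cre-only mice enter only the filter and the estimate of spread, and the alternatives that name them. The WT group has 3 libraries and carries no Cre and no altered allele. CDK8KO (n = 4) is Cdk8 flox/flox and carries the Vav-iCre transgene, whose Vav promoter drives Cre recombinase in blood cells, so that Cdk8 deletion is aimed at blood cells and not at stroma or bone. CDK19KO (n = 4) is null for Cdk19 in every cell and carries no Cre. DKO (n = 4) joins Cdk8 flox/flox, Vav-iCre and the Cdk19 null allele, and VAV (n = 4) has the transgene alone. Since CDK8KO and DKO both carry Cre, and WT and CDK19KO both lack it, a Cre effect that adds on the log2 scale drops out of the departure. All mice were C57/BL6 and 8 weeks old, were untreated, and gave marrow flushed from tibiae and femurs. The labels number the libraries without saying that each is a separate animal, so every p-value rests on the variation among libraries, part of which may be technical.

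CDK8 and CDK19 are close paralogs, and either of them can pair with cyclin C, MED12 or MED12L, and MED13 or MED13L to form the kinase module of Mediator. Mediator carries signals from DNA-bound transcription factors to RNA polymerase II, and its kinase module can dampen or strengthen that transfer, depending on the gene. In blood cells the kinases are known for phosphorylating STAT transcription factors, which act below cytokine receptors. Where paralogs stand in for each other, losing both is expected to do more than the sum of the single losses, and the departure measures that excess, or its opposite, for each gene.

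The libraries held 14881701 to 33010241 reads assigned to genes, and 3 reads, the upper 95% limit of a count of 0, correspond to 2.19 to 4.50 normalized counts (counting error only). Some libraries stood apart in their cell makeup. Genes of a skeletal muscle list made up 0.613% of CDK19KO replicate 4 and 0.137% of DKO replicate 4, and at most 0.00755% of every other library. Genes of an erythroid and heme synthesis list took 4.27% of the CDK8KO replicate 1 library and 3.66% of VAV replicate 3, while the others held 0.183% to 1.75%, and DKO lay at 0.241% to 0.539%. A list of mature neutrophil genes, the main cells of marrow, took 1.74% to 3.44% of the reads in every library.

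The targeted genes were read first. Cdk19 was at 3214, 3216 and 3042 normalized counts in the WT libraries and at 2709.6, 3498, 3015 and 3579 in CDK8KO. In CDK19KO it was at 1174, 1025, 1072 and 1092, and in DKO at 1185, 1202, 1109.5 and 1196. Every Cdk19-null library was thus below every library with the gene intact, at 34.5% of WT in CDK19KO and 36.7% of CDK8KO in DKO (exact permutation p = 0.0286 for each, the smallest these group sizes allow, and 0.0762 after Benjamini-Hochberg adjustment over the 8 comparisons of Cdk19 and Cdk8). Cdk8 was at 1206, 1243 and 1275 in WT and 1298, 1052, 1011 and 692 in CDK8KO, where it was 81.6% of WT with overlapping libraries (exact permutation p = 0.171, adjusted 0.229). The 1298 was that of CDK8KO replicate 1, the library richest in erythroid reads, and it lay above every WT library. In DKO Cdk8 was at 881, 806, 761 and 742, 70.4% of its level in CDK19KO (exact permutation p = 0.0286, adjusted 0.0762). Against CDK8KO it was at 78.7%, within the range of the CDK8KO libraries (exact permutation p = 0.143, adjusted 0.229). Which part of Cdk8 is removed is not given in the sources used here, so its gene-level count checks the Cdk8 labels only in part, and CDK8KO and DKO stand here for the groups so labelled. The departure of Cdk19 itself was 0.10 ± 0.16 (SE) on the log2 scale and that of Cdk8 was -0.17 ± 0.25. None of the 7 kinase module genes passed in the limma fit at an unadjusted p of 0.05, nor by edgeR or DESeq2, with values from -0.26 for Med13l to 0.20 for Med12l.

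The departure passed at a limma adjusted p under 0.05 for 21 genes, 0.150% of those tested. Of these, 13 (0.0930%) were higher in DKO than the sum of the single losses and 8 (0.0572%) were lower. At an unadjusted p under 0.05 there were 1208 genes, 8.64% of those tested, and the median departure over all genes was 0.00. All 21 genes departed by more than 2-fold, and 12 of them by more than 4-fold. The standard error of the departure had a median of 0.29 on the log2 scale, against 0.20 for DKO minus CDK8KO and 0.21 for CDK19KO minus WT, so a departure needed to be larger than a single step to pass. The count was 10 (5 higher, 5 lower) without WT replicate 3 and 12 (6 higher, 6 lower) without CDK19KO replicate 2. The higher genes numbered 8 without WT replicate 1, without CDK19KO replicate 4 or without DKO replicate 3. Without the 2 libraries rich in muscle transcripts 11 genes passed, all 11 among the 21. When the single losses were summed on the untransformed scale, 22 genes were higher and 1 lower, and 10 of these 23 are among the 21.

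**Figure D1:**
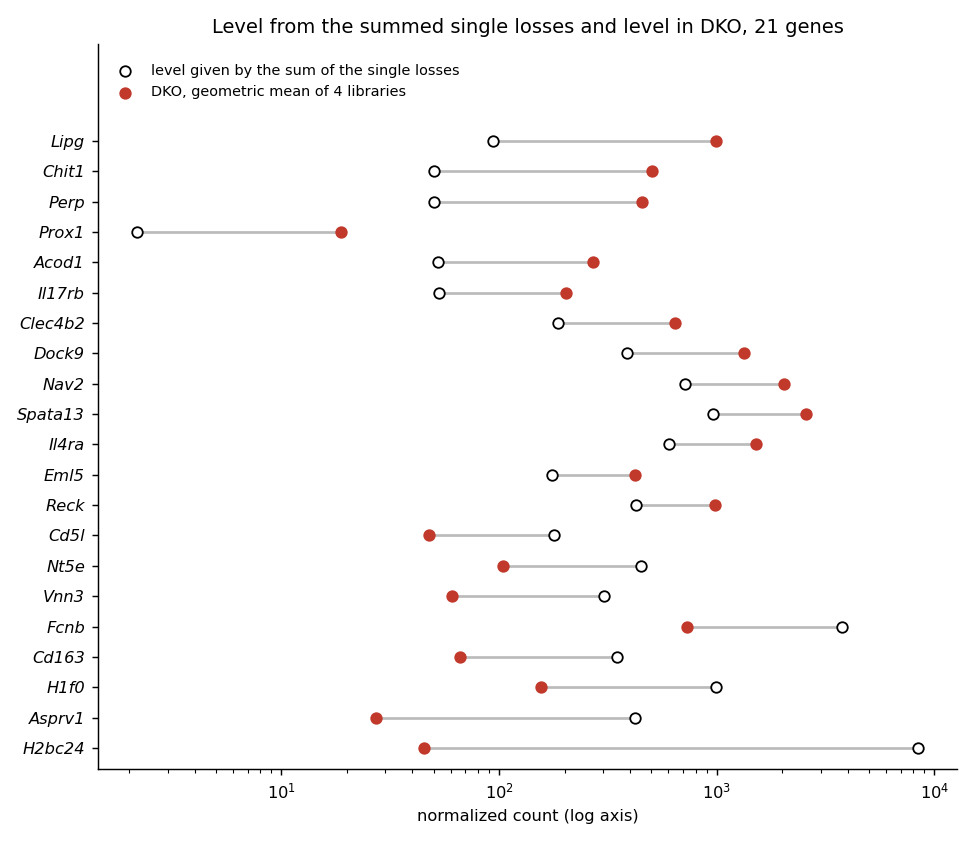
Each row is a gene that passed; the x axis is the normalized count on a log axis. Open circles give the level that the summed single losses lead to and red points the geometric mean of the 4 DKO libraries, and the grey line between them is the departure. The 13 upper genes lie to the right of the open circle and the 8 lower genes to the left, with H2bc24 showing the widest gap.

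In 15 of the 21 genes DKO stood alone: its 4 libraries lay above (9 genes) or below (6 genes) all 11 libraries of the other 3 genotypes. Over all tested genes such an order held for 1.46% above and 1.54% below. The same libraries make the departure, so this order describes which libraries stood apart and is no separate evidence. In the same 21 genes, the WT libraries stood above all others for Il4ra (WT was apart in 0.680% of all genes). CDK8KO stood above for Nt5e and below for Prox1 (0.401%), and CDK19KO stood above for Cd5l and below for Chit1 and Reck (0.215%). Vnn3, Acod1, Eml5 and H2bc24 had no genotype apart from the rest.

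Among the 9 genes with DKO above all other libraries, 3 encode proteins that act on the cytoskeleton. Dock9 (ENSMUSG00000025558, chr14:121542046-121797837) is an exchange factor that activates the small GTPase CDC42. It was at 349.6, 464 and 358 normalized counts in WT, 338, 347, 367 and 415 in CDK8KO, 474, 343, 382 and 457 in CDK19KO and 1448, 1513, 1211 and 1178 in DKO. The 3 other genotypes overlapped and each DKO library exceeded all of them by more than 2-fold. The departure was 1.78 ± 0.20 (SE; limma adjusted p = 0.000277), which put DKO 3.42-fold above the 388 that the single losses add up to. Spata13 (ENSMUSG00000021990, chr14:60634001-60764556), an exchange factor for RAC1 and CDC42, was lower in both single losses than in WT on average, at 1962, 1579.5 and 2312 in WT, 1367, 1373, 1163 and 1652 in CDK8KO and 1492, 1270.2, 1249 and 1375 in CDK19KO. DKO read 2583, 2843, 2471 and 2383, above every WT library. Its departure was 1.42 ± 0.18 (limma adjusted p = 0.000797), while DKO was 1.32-fold above WT. Nav2, a microtubule-associated protein of the neuron navigator family, ranged over 885 to 1167 in WT, 574 to 964 with Cdk8 deleted, 720.5 to 1187 with Cdk19 lost and 1507 to 2916 with both. Its departure of 1.52 ± 0.29 had a limma adjusted p of 0.0441 and lost the call when any of 11 of the 15 libraries was left out, with adjusted p up to 0.162.

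A further 3 encode membrane proteins and receptors. Perp (ENSMUSG00000019851, chr10:18845020-18857073), a p53-responsive protein of cell junctions, was low in every genotype but DKO. It read 34.4, 25.3 and 20.5 normalized counts in WT, 30.4, 26.2, 40.5 and 58.02 in CDK8KO, 54.9, 17.8, 43.1 and 37.9 in CDK19KO and 384, 484, 485 and 468 in DKO. The lowest DKO library was thus several times the highest of the other 11, and the departure was 3.14 ± 0.47 (limma adjusted p = 0.0047), 8.83-fold over the sum. The other 22 tested genes of a list of p53 targets did not pass, and the list's median was 0.04, between -0.05 and 0.07 as libraries were left out, with 13 of 23 members above 0. Clec4b2 (ENSMUSG00000067767, chr6:123172893-123204671), a myeloid C-type lectin receptor, was at 329.9, 265 and 293 in WT and 183, 267, 272 and 176 in CDK8KO. It was at 185, 263, 286 and 282 in CDK19KO and 565, 736, 594 and 699.9 in DKO, so that both single losses were level with or below WT and the combined loss was 2.19-fold above it. The departure was 1.78 ± 0.27 (limma adjusted p = 0.00471). Il17rb, a subunit of the interleukin-25 receptor, was at 73.02, 78.4 and 60.1 in WT, 72.8, 37.4, 48.2 and 58.02 in CDK8KO, 68.3, 56.1, 90.8 and 72.3 in CDK19KO and 199, 131, 274 and 243 in DKO. It departed by 1.92 ± 0.37 (limma adjusted p = 0.0441), and 12 of the 15 fits that left out a library lost the call, with adjusted p up to 0.115.

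The last 3 of the genes with DKO above the rest encode enzymes or an enzyme inhibitor. Chit1 (ENSMUSG00000026450, chr1:134111242-134151540), the chitinase chitotriosidase of phagocytes, was at 71.3, 62.5 and 70.3 normalized counts in WT and 69.6, 61.2, 83.2 and 184 in CDK8KO, with replicate 4 the highest. CDK19KO was the lowest genotype, at 36.6, 41.6, 29.03 and 45.9, whereas DKO was the highest, at 583, 644, 299 and 574. The step of Cdk19 loss was -0.83 on the log2 scale with Cdk8 intact, short of the threshold (limma adjusted p = 1), and 2.47 with Cdk8 deleted (limma adjusted p = 0.00016). The departure was 3.30 ± 0.44 (limma adjusted p = 0.0012), 9.88-fold. Lipg, the endothelial lipase that acts on lipoprotein phospholipids, was at 358, 245 and 421 in WT, 198, 414, 84.3 and 239 in CDK8KO, 268, 138, 141 and 110.2 in CDK19KO and 1160.3, 1334, 1129.5 and 559 in DKO. It had the largest positive departure among the genes that passed, 3.39 ± 0.61, with a limma adjusted p of 0.0248 that rose to at most 0.121 in the 8 of 15 fits without a library that lost the call. Reck, a membrane-anchored inhibitor of matrix metalloproteinases, ranged over 469.9 to 536 in WT, 491 to 653 in CDK8KO and 305 to 417 in CDK19KO, and reached 842 to 1146 in DKO. It is named although 12 genes of its direction ranked above it, a choice made after its value was seen, and it departed by 1.198 ± 0.20 (limma adjusted p = 0.0119, 0.0743 without WT replicate 3).

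**Figure D2:**
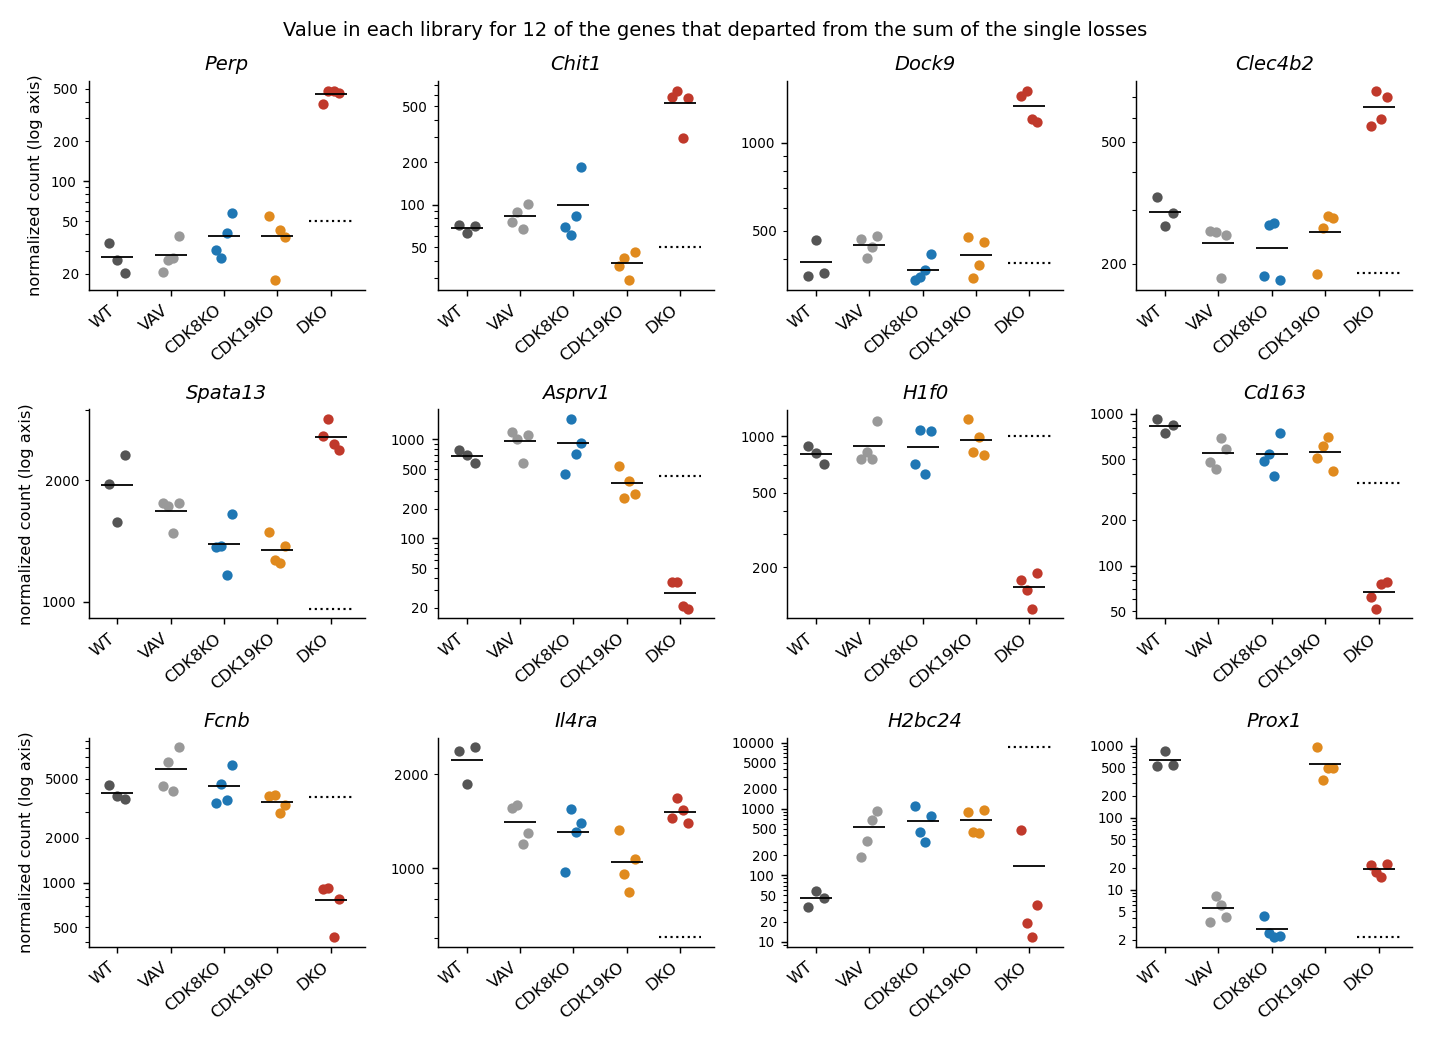
Each panel plots 1 gene by genotype, with a point per library, a bar at the group mean and, over DKO, a dotted line at the level given by the summed single losses; the y axes are normalized counts on log axes with their own ranges. In the first 5 panels the DKO points lie above every other point and the dotted line, and in Asprv1, H1f0, Cd163 and Fcnb they lie below. In Il4ra the WT points lie above all others, and in Prox1 the Cre-carrying groups lie below WT and CDK19KO. In H2bc24 no group stands apart.

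The genes lower than the sum include Asprv1, Fcnb, Cd163 and Cd5l, products of neutrophils or macrophages, and in each the DKO libraries lay below all others. Chit1 and Clec4b2, which myeloid cells also make, were higher than the sum, so such products lay on both sides. Their share among all tested genes was not counted. Asprv1 (ENSMUSG00000033508, chr6:86628164-86629710), a retroviral-like aspartic protease found in neutrophils and epidermis, was at 783, 693 and 570.3 normalized counts in WT, 449, 1597, 703 and 922 in CDK8KO and 537, 253, 378 and 279 in CDK19KO. DKO read 36.5, 36.4, 21.1 and 19.5, which left the 11 other libraries far above. The single losses add up to 423, and the departure of -3.91 ± 0.49 (limma adjusted p = 0.000797) put DKO 15.02-fold below that. Among 20 tested genes of the mature neutrophil list, Asprv1 was the member that passed in limma, and 11 of the 20 lay below 0. The list's median was -0.15 and spanned -0.23 (without CDK8KO replicate 3) to 0.02 (without CDK8KO replicate 2). DESeq2 also called Stfa1, a cysteine protease inhibitor of the stefin family, in the opposite direction, with 402 to 1065 normalized counts in DKO and at most 272 in the other genotypes of the contrast (departure 1.69 ± 0.44, limma adjusted p = 0.190). Fcnb (ENSMUSG00000026835, chr2:28076378-28084885), the ficolin that neutrophils and monocytes make as a lectin-pathway recognition protein, was at 4522, 3815 and 3659.8 in WT, 3427, 4585, 3604 and 6169.8 in CDK8KO and 3824, 3862, 2914 and 3323 in CDK19KO. In DKO it was at 906, 925, 428 and 781, a departure of -2.37 ± 0.36 (limma adjusted p = 0.00471) and 5.15-fold below the sum.

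Cd163 (ENSMUSG00000008845, chr6:124304656-124330527), the macrophage receptor that takes up haptoglobin-bound hemoglobin, was at 923, 743 and 840.2 normalized counts in WT, 489, 542, 388 and 749 in CDK8KO, 512, 612, 703 and 419 in CDK19KO and 62.2, 51.9, 75.8 and 77.9 in DKO. Both single losses were about equally below WT on average, and the combined loss was 8.09-fold below CDK8KO. Cre-only VAV marrow, at 482, 434, 695 and 590, was also below every WT library. The departure was -2.38 ± 0.31 (limma adjusted p = 0.000797), 5.21-fold. In bulk marrow, fewer cells of a type and less RNA per cell cannot be told apart. Of 17 tested genes that mark red-cell-clearing macrophages, Cd163 was the member that passed in limma and 12 lay below 0, with a median departure of -0.25. That median was -0.41 without DKO replicate 2, -0.17 without DKO replicate 1, -0.39 without CDK19KO replicate 4, -0.47 without the 2 libraries rich in muscle transcripts and -0.43 with VAV in place of WT. The summed list took 0.102% to 0.155% of DKO reads, 0.105% to 0.140% of CDK8KO reads, 0.147% to 0.205% of CDK19KO reads and 0.142% to 0.170% of WT reads. Hpgd and Hmox1, chosen as its members with the next smallest p, had departures of -0.92 ± 0.23 and -1.13 ± 0.31 (limma adjusted p 0.159 and 0.234), and DESeq2 called both. Cd5l, a protein that macrophages secrete, was at 213, 215 and 178 in WT, 152, 88.6, 119 and 208 in CDK8KO, 257, 226, 332 and 255 in CDK19KO and 48.1, 51.9, 32.6 and 64.4 in DKO. It was highest in CDK19KO and lowest in DKO, for a departure of -1.87 ± 0.36 (limma adjusted p = 0.0446), which 13 of the 15 fits without a library lost, with adjusted p up to 0.172. Its VAV libraries, at 110, 112, 163 and 141, were below every WT library as well.

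H1f0 (ENSMUSG00000096210, chr15:79028450-79030504), the linker histone H1.0 of resting and differentiated cells, was at 886, 818 and 711 normalized counts in WT and 706, 1078, 628 and 1067 in CDK8KO. It was at 1234, 826, 987 and 791 in CDK19KO and 171, 151, 120.0 and 186 in DKO. The DKO libraries lay far below all 11 others. Its departure was -2.68 ± 0.30 (limma adjusted p = 0.000277), 6.39-fold below the sum, and it did not differ from WT past the threshold in either single loss. The other 11 tested linker and core histone genes of the list also lay below 0 without passing, and the median over the 12 was -0.57. It was -0.37 without CDK8KO replicate 1, the library richest in erythroid reads, whose Cdk8 count also lay above every WT library. With the mean log2 level of the erythroid and heme synthesis list as a covariate it was -0.26. Nt5e, the ectonucleotidase CD73 that makes adenosine from AMP, was at 271, 294 and 184 in WT, 458, 512, 404 and 439 in CDK8KO, 224, 236, 242 and 274 in CDK19KO and 53.9, 102, 151 and 144 in DKO. CDK8KO was the highest of these genotypes, and VAV, with 713, 521, 337 and 345, overlapped it. Its departure of -2.09 ± 0.41 (limma adjusted p = 0.0446) lost the call in 12 of the 15 fits without a library, with adjusted p up to 0.185.

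The stretch around the start of transcription is shown for 5 of these genes, the 3 lowest members with immune products and the 2 higher members that myeloid cells display or secrete, so that the sequence can be read beside the values. The windows come from RefSeq on build GRCm38 (mm10) and run 5′ to 3′ on the gene's strand from 250 bases before the start to 25 after it. Capitals mark matches, on either strand and with no overlap between motifs, to GAGGAA (the core of sites for PU.1 and other ETS factors), TTCNNNGAA (a STAT-type palindrome), TTGCNNAA (C/EBP-type) or TGANTCA (AP-1-type).
Asprv1, chr6:86627924-86628198, plus strand: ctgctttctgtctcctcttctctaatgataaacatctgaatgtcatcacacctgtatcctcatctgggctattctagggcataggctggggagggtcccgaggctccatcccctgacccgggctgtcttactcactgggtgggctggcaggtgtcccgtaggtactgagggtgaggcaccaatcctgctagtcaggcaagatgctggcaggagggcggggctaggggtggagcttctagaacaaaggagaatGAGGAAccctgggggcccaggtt
Cd163, chr6:124304401-124304675, plus strand: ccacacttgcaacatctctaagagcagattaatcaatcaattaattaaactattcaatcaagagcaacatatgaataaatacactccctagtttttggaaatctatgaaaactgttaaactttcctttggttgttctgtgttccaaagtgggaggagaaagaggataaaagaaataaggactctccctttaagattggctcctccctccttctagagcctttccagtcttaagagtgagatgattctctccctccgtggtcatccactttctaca
Fcnb, chr2:28084854-28085128, minus strand: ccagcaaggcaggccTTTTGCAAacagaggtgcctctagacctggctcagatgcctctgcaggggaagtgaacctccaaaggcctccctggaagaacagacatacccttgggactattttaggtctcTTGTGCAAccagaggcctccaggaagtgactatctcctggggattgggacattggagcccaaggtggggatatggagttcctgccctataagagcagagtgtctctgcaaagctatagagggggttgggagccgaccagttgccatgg
Chit1, chr1:134110992-134111266, plus strand: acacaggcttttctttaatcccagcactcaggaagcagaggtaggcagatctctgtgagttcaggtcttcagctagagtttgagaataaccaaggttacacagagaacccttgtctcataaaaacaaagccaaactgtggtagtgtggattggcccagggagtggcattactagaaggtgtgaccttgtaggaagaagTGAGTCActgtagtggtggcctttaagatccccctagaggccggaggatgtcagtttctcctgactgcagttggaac
Clec4b2, chr6:123172773-123173047, plus strand: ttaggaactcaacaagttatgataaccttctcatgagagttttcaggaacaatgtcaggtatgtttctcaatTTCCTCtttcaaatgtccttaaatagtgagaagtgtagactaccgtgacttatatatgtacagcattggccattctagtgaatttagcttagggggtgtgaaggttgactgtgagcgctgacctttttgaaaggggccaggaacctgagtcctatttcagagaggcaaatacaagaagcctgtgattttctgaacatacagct
Fcnb holds 2 C/EBP-type matches, the first bases of which lie 235 and 123 bases before the start. Asprv1 has the ETS core starting 2 bases after the start, Clec4b2 has it on the other strand (TTCCTC) 178 bases before, Chit1 has an AP-1-type match 52 bases before, and none of the 4 motifs is found in the Cd163 window. RefSeq windows of 300 bases were matched by symbol for 18 of the 21 genes, 23 windows in all. The ETS core stood in 9 of these 23 windows, against 28.3% of 32851 windows of all genes, the STAT-type palindrome in 1 (8.30%), the C/EBP-type motif in 2 (10.8%) and the AP-1-type motif in 2 (7.81%). These matches describe the letters only.

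In 6 further genes the DKO libraries did not stand apart from all others. Single-loss steps also entered departures of genes described above. Lipg changed by -1.10 from WT to CDK19KO and by -0.72 from WT to CDK8KO. Spata13 changed by -0.52 and -0.48 in the same order, and in neither gene did a single-loss step pass in limma. Il4ra (ENSMUSG00000030748, chr7:125552120-125579474) encodes the interleukin-4 receptor chain that signals through STAT6. It was at 2374, 1864 and 2432 normalized counts in WT, 976, 1549, 1304 and 1393 in CDK8KO, 1326, 957, 843 and 1067 in CDK19KO and 1446, 1679, 1531 and 1398 in DKO. Cdk19 loss lowered it by 1.09 with Cdk8 intact (limma adjusted p = 0.0237), and the step was 0.23 with Cdk8 deleted (limma adjusted p = 0.493), so DKO lay between WT and CDK19KO. The summed losses lead to 602, and the departure was 1.32 ± 0.23 (limma adjusted p = 0.0165). Cre-only VAV marrow, at 1561, 1588, 1196 and 1292, was also below every WT library, and with VAV in place of WT the value fell to 0.67 and no longer passed (limma adjusted p = 0.136). Of 23 tested genes of interleukin-4, common-chain receptors and STAT6 targets, Il4ra was the member that passed and 16 lay above 0, with a median of 0.12 (0.02 to 0.24 as libraries were left out).

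Acod1, which makes the macrophage metabolite itaconate, was at 332, 174 and 359 normalized counts in WT, 92.4, 163, 151 and 151 in CDK8KO, 188, 72.2, 95.5 and 99.9 in CDK19KO and 268, 287, 375 and 183 in DKO. DKO and WT overlapped and both single losses were lower on average, for a departure of 2.34 ± 0.46 (limma adjusted p = 0.0446). Eml5, of a family of microtubule-associated proteins, also had its 2 highest means in WT and DKO, with 436 to 503 for WT, 221 to 304 for CDK8KO, 274 to 414 for CDK19KO and 388 to 481 for DKO, and departed by 1.26 ± 0.25 (limma adjusted p = 0.0446). The calls of Acod1 and Eml5 were lost in 12 and 13 of the 15 fits without a library. Vnn3, a pantetheinase of the vanin family, ran the opposite way, at 141, 138 and 88.2 in WT, 158, 272, 166 and 187 in CDK8KO, 228, 135, 187 and 228 in CDK19KO and 53.1, 98.7, 37.9 and 67.4 in DKO. Single losses were above WT on average and DKO below them, for a departure of -2.31 ± 0.39 (limma adjusted p = 0.0119, 0.0743 without WT replicate 3). Cre-only VAV means were 169 for Acod1, 288 for Eml5 and 221 for Vnn3. WT means were 288, 463 and 122 and CDK8KO means 139, 257 and 196, in the same order. With VAV in place of WT the departures were 1.59, 0.55 and -1.43, and none passed (limma adjusted p 0.0944, 0.229 and 0.0803).

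Prox1 and H2bc24 passed on levels that Cre-carrying or WT libraries set. Prox1, a homeobox factor of lymphatic vessels and some progenitors, was at 518, 848 and 533 normalized counts in WT and 941, 332, 492 and 484 in CDK19KO. Every Cre-carrying group was far lower, with 4 to 11 reads in VAV, 2 to 4 reads in CDK8KO and 14 to 26 reads in DKO. The CDK8KO libraries lie at the 3-read limit, so the departure of 2.64 ± 0.48 (limma adjusted p = 0.0248) compares small counts, and it turned to -3.98 with VAV in place of WT. The call was also lost in 8 of the 15 fits without a library, with adjusted p up to 0.1002. H2bc24, a core histone gene with near-identical copies between which reads may be split, was at 32.6, 57.2 and 44.8 in WT, 186, 327, 675 and 944 in VAV, 1112, 444, 315 and 779.9 in CDK8KO and 894, 448, 435 and 947 in CDK19KO. In DKO it was at 481, 19.04, 11.6 and 35.97, with replicate 1 among the single losses and the other 3 near or below WT. Its departure of -7.52 ± 1.17 (limma adjusted p = 0.00611) was the largest in size among the genes that passed, and edgeR did not call it (adjusted p = 0.0825). The level of 8439 that the sum implies was far above any library.

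**Figure D3:**
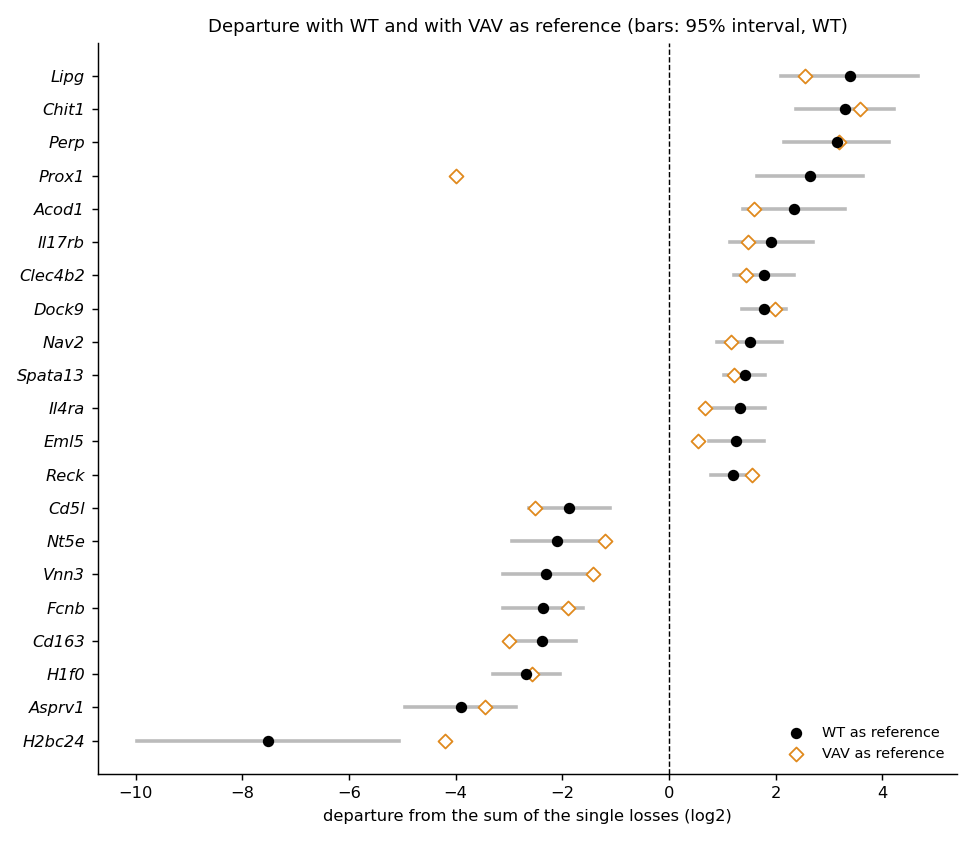
Each row is a gene that passed; the x axis is the departure on the log2 scale. Black points and grey 95% intervals use WT as the reference and open diamonds use VAV in its place. The diamonds keep the side of 0 for all genes except Prox1. Those of Chit1, Perp, Dock9, Reck, Cd163 and Cd5l lie farther from 0 than the black points. That of Prox1 lies across 0 at -3.98, also farther out than its black point, and is the widest shift. Those of the remaining genes lie nearer to 0, and among these H2bc24 shifts the most.

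With VAV in place of WT a Cre effect no longer drops out, since CDK19KO carries no Cre, and 67 genes passed, of which 12 are among the 21. Prox1 was 1 of these 12, with its sign reversed, and Chit1, Perp, Clec4b2, Dock9, Spata13, Reck, Cd5l, Asprv1, H1f0, Cd163 and Fcnb passed with both references. Dock9 had 1.98 with VAV and Asprv1 had -3.45. Only Prox1 among the 21 differed between VAV and WT past the threshold (0.0930% of all genes did so, 0.0716% upward and 0.0215% downward), and it fell by 6.63 on the log2 scale (limma adjusted p = 1.97e-09).

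Side by side, the steps show how the 21 genes came apart from the sum. Cdk19 loss had opposite signs with Cdk8 intact and with Cdk8 deleted in 14 of them, 10 higher and 4 lower, a share to be read against 50.3% of all tested genes. In the other 7, Il17rb, Perp and Dock9 higher and Cd163, Fcnb, Nt5e and Asprv1 lower, both steps had the same sign and the step was larger with Cdk8 deleted, as in 31.6% of all genes. The step from CDK8KO to DKO passed on its own in 19 of the 21, all but Acod1 and Il4ra, where 1.70% of all genes passed, 1.05% upward and 0.651% downward. The step from CDK19KO to DKO passed in 19, all but Il4ra and Eml5, where 2.00% of all genes passed, 1.34% upward and 0.658% downward. Both steps had the sign of the departure in all of these except Prox1, which was lower in DKO than in CDK19KO. The step from WT to CDK19KO passed for Il4ra alone, which fell, as did 0.0215% of all genes. That from WT to CDK8KO, which also holds the Cre transgene, passed for Prox1 alone, which fell (0.0859% of all genes passed, 0.0501% upward and 0.0358% downward). These steps share their libraries with the departure. Asprv1 and Dock9 show the pattern: Asprv1 had -0.96 ± 0.36 for Cdk19 loss with Cdk8 intact and -4.87 ± 0.34 with Cdk8 deleted, and Dock9 had 0.08 ± 0.15 and 1.86 ± 0.13.

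**Figure D4:**
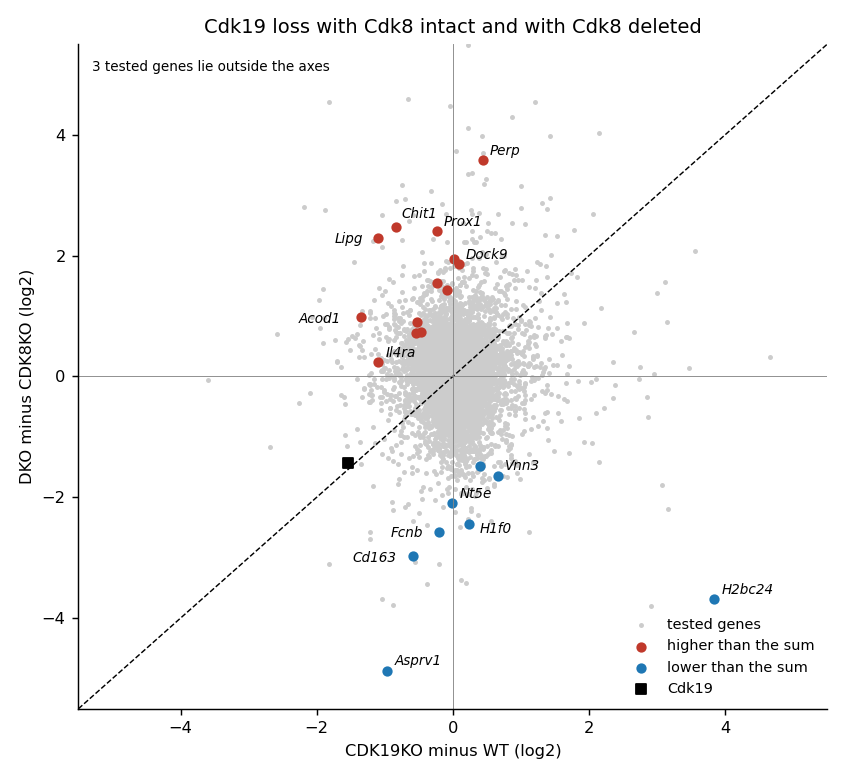
Each point is a tested gene; the x axis is the log2 change from WT to CDK19KO and the y axis that from CDK8KO to DKO. On the dashed line the combined loss equals the sum. Cdk19 (black square) lies close to the line, the 13 red genes lie above it and the 8 blue genes below, and 3 genes lie outside the axes.

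The 21 genes were spread over 13 chromosomes. Chromosome 14 held 4 of them, Il17rb, Spata13, Acod1 and Dock9, and 3.48% of all tested genes, and chromosome 6 held Cd163, Asprv1 and Clec4b2 and 5.58% of all tested genes. Perp and Vnn3 share chromosome 10 with Cdk19, at 21.5 and 16.5 Mb from it. None of 4 genes known to differ between C57BL/6 substrains (5 identifiers, 2 of them for Nnt) passed in limma, edgeR or DESeq2, and 0 of the 5 had an unadjusted p under 0.05.

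Lists of cell type markers and pathways were then read by counts and medians, beside 7030 of all tested genes above 0, 6944 below and a median of 0.00. Eosinophil, basophil and neutrophil primary granule lists had most members above 0. The primary granule list had 8 of 10 above 0 with a median of 0.43, which was 0.80 with VAV in place of WT and -0.03 with the erythroid covariate, and no member was called by limma, edgeR or DESeq2 (1 had an unadjusted p under 0.05). Of 13 eosinophil genes, 10 lay above 0 with a median of 0.98, none passed in limma or edgeR, 5 had an unadjusted p under 0.05, and DESeq2 called Prg3 and Epx. Epx, eosinophil peroxidase and the member with the second smallest p, was at 601, 499.9 and 400.3 normalized counts in WT, 58.7, 142, 114 and 309.7 in CDK8KO, 843, 432, 1166 and 477 in CDK19KO and 1295, 943, 3156 and 2230.2 in DKO. It was lowest in CDK8KO and highest in DKO, for a departure of 3.25 ± 0.76 (limma adjusted p = 0.110), and the list's median was 0.40 without DKO replicate 3 and 0.37 with WT and VAV pooled. Epx in Cre-only VAV, at 178, 828, 178 and 306, overlapped both CDK8KO and WT. The list's median log2 change from WT was -0.63 in VAV and -0.63 in CDK8KO. The eosinophil list took 0.0342% to 0.108% of reads in DKO and 0.0223% to 0.0514% in the other genotypes of the contrast. Of 11 basophil and mast cell genes, 9 lay above 0 with a median of 0.83 (0.50 with the erythroid covariate), 7 of them had an unadjusted p under 0.05 and none passed in limma or edgeR. Fcer1a, the high-affinity IgE receptor chain and the member with the smallest p, was at 94.5, 94.4 and 105 in WT, 78.3, 156, 98.5 and 119 in CDK8KO, 84.1, 93.5, 95.5 and 150.4 in CDK19KO and 298, 366, 292 and 419.7 in DKO. DKO was above all 11 other libraries, with a departure of 1.55 ± 0.31 (limma adjusted p = 0.0589), and DESeq2 called it.

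Lymphocyte lists split. All 19 tested T cell genes lay above 0 with a median of 1.01 (0.66 without WT replicate 1), 8 of them at an unadjusted p under 0.05 and none past the threshold in limma or edgeR. Cd8a, the member with the smallest p, was at 228, 114 and 240.4 normalized counts in WT, 92.4, 92.4, 242 and 139 in CDK8KO, 143, 121, 114 and 148 in CDK19KO and 207, 487, 542 and 564 in DKO. DKO replicate 1 lay among the other genotypes and the remaining 3 above them, for a departure of 2.17 ± 0.50 (limma adjusted p = 0.110, called by DESeq2). The T cell list took 0.00890% to 0.0256% of reads in DKO and 0.00764% to 0.0166% in the other genotypes of the contrast. NK cell genes were mixed, with 11 of 18 above 0 and a median of 0.13 that spanned -0.09 (without WT replicate 1) to 0.35 (without DKO replicate 1), and their members of smallest p ran the other way, with -2.11 ± 0.45 for Ncr1 and -2.50 ± 0.55 for Klra4 (limma adjusted p 0.0738 and 0.0930, both called by DESeq2). B cell precursor and mature B cell genes had medians of -0.22 and -0.22, which turned to 0.17 without DKO replicate 2 and to 0.07 without CDK8KO replicate 3, with 0 genes at an unadjusted p under 0.05 and none called by limma, edgeR or DESeq2.

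The erythroid and proliferation lists lay below 0. All 29 erythroid and heme synthesis genes were below 0 with a median of -1.48, 6 at an unadjusted p under 0.05 and none past the threshold in limma, edgeR or DESeq2. The median was -0.93 without CDK8KO replicate 1, the library richest in erythroid reads, whose Cdk8 count also lay above every WT library. It was 0.04 with the erythroid covariate, which is the mean log2 level of these same genes. That fit brings their average departure to 0 by construction, so the 0.04 carries no information. S phase genes lay below 0 in 29 of 30, with a median of -0.46 and 12 at an unadjusted p under 0.05, and mitosis genes in 29 of 30, with a median of -0.33 and 3 such genes. No gene of either list was called by limma, edgeR or DESeq2. The erythroid level moved with them: without CDK8KO replicate 1 their medians were -0.28 and -0.17, and with the erythroid covariate both were -0.17. The mitosis median was -0.13 with VAV in place of WT. The part of the erythroid level in these lists was not tested further. Pcna, the replication clamp and the S phase member with the smallest p, was at 5056, 3765 and 4240.4 normalized counts in WT, 9578, 5942, 5174 and 4718 in CDK8KO, 4419.6, 5284, 4709 and 4816 in CDK19KO and 4085, 3295, 4014 and 3240.4 in DKO, where CDK8KO replicate 1 was the highest of all. With the erythroid covariate the count of genes past the threshold was 22, of which 15 are among the 21, and Dock9, H1f0, Cd163, Asprv1, Fcnb, Perp and Chit1 kept their calls.

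Among signalling and stress lists, interferon-stimulated genes lay above 0 in 26 of 30, with a median of 0.48 and 6 at an unadjusted p under 0.05. The median was 0.31 with the erythroid covariate and 0.87 with VAV in place of WT. Gbp2, an interferon-induced GTPase, was at 314, 309.8 and 384 normalized counts in WT, 232, 463, 364 and 409 in CDK8KO, 427, 338, 384 and 261 in CDK19KO and 681, 989, 602 and 788 in DKO, with DKO above the other 3 genotypes (1.03 ± 0.33, limma adjusted p = 0.381). No interferon gene was called by limma, edgeR or DESeq2. Heat shock chaperones lay below 0 in 11 of 13, with a median of -0.41 (-0.27 with VAV in place of WT), 5 at an unadjusted p under 0.05 and none called by any of these tools. Mediator core genes had a median of -0.12, transcription kinases and pausing factors -0.03, NF-kappaB and inflammatory genes 0.08, and immediate early genes -0.06. The last 3 of these medians took both signs as libraries were left out in turn, and no gene of the 4 lists passed in limma, edgeR or DESeq2. At an unadjusted p under 0.05 they held 1, 0, 3 and 5 genes, in the order given. Stroma, bone and vessel genes had a median of 0.30 with 17 of 20 above 0 and none past the threshold in limma, edgeR or DESeq2 (0 at an unadjusted p under 0.05). It was 0.47 without WT replicate 1 and 0.69 with the erythroid covariate. The skeletal muscle median of 1.41 was -0.04 without DKO replicate 4 and 3.21 without CDK19KO replicate 4, the 2 libraries that hold most muscle reads.

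**Figure D5:**
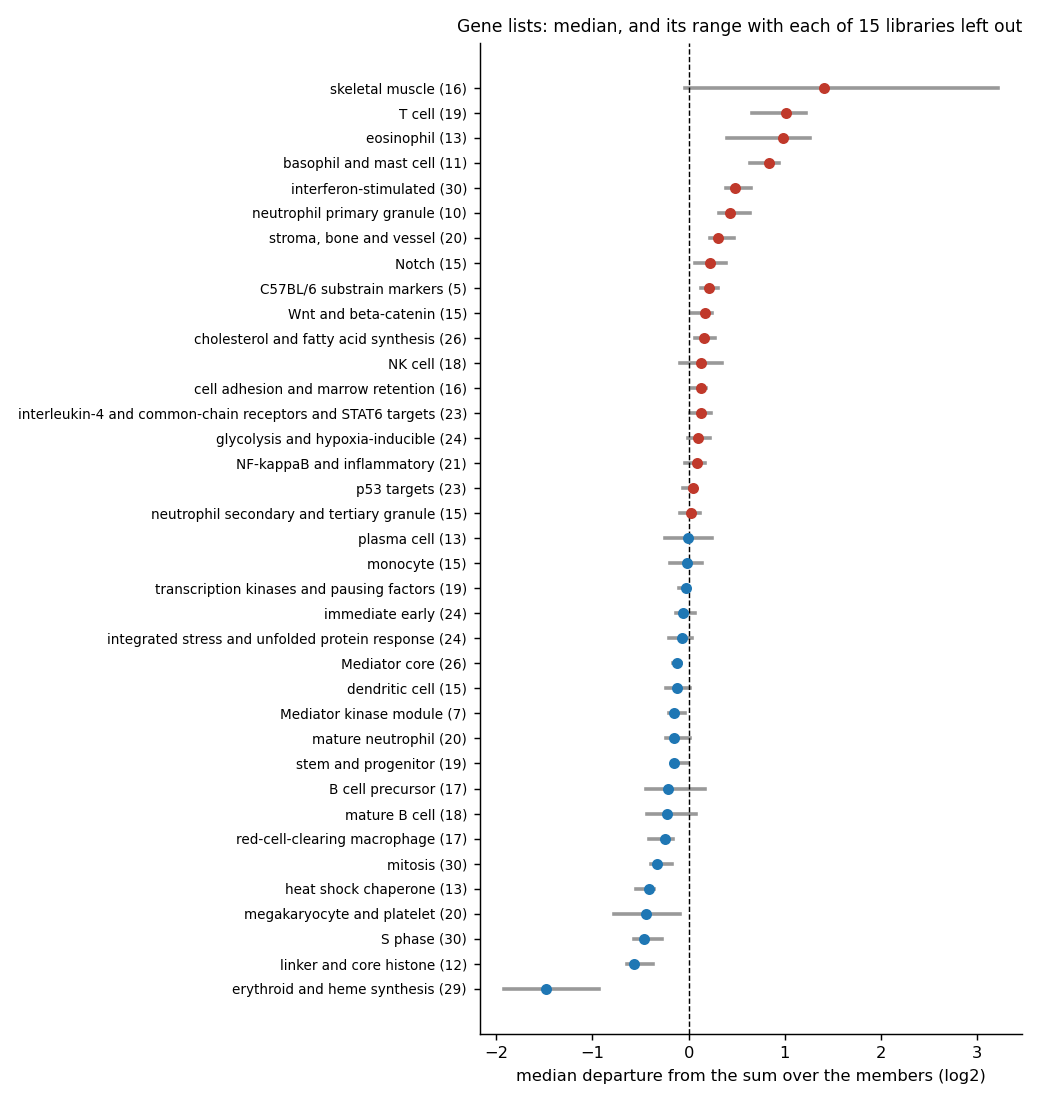
Each row is a gene list with its number of tested members; the x axis is the median departure on the log2 scale. Points are the medians, red above 0 and blue below, and grey bars span the medians obtained when each of the 15 libraries was left out in turn. T cell, eosinophil and basophil lists lie to the right and erythroid, histone and S phase lists to the left, and the muscle bar crosses 0.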

How the data were processed

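Bone marrow polyA RNA from 5 genotypes of mice (19 libraries, paired 150-base reads) was quantified with Salmon 1.4.0 on mm10, and DESeq2 is named without a version, per the submitters' processing notes. The authors deposited 1 table of normalized counts, gene counts divided by a size factor for each library (unit: signal). Every value was a whole multiple of what 1 read is worth in its library (100%, tolerance 0.001), so whole reads were recovered, at 14881701 to 33010241 per library. No 2 libraries of a genotype were alike within sampling noise (chi-square per degree of freedom at least 15.5). All columns matched a labelled sample.

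Values were tested as log2(value + 1) with limma 3.58.1 (R 4.3.3, trended variance, 5 group means, no covariate), keeping genes with a mean of at least 10, with Benjamini-Hochberg adjustment over 13976 genes and a threshold of 0.05. The pseudocount understates changes of low genes. Levels that the single losses add up to are geometric. Alternatives covered edgeR 4.0.16 and DESeq2 1.42.0 on the recovered reads, pseudocounts, filters, scaling, reference group, replicate block, covariates and each library left out. The code was tested on simulated data. Named were up to 12 genes per direction with the largest departure and a mean of at least 50 in a genotype of the contrast, the 7 kinase module genes and list members that passed. Gene positions are those of GENCODE vM21 (GRCm38), which matched 34372 of 34432 identifiers. Members, lists and tests were chosen with earlier results of these data known. Analyses needing protein sequences were not done.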

Additional observations from a re-analysis of the deposited data

Results flagged for a closer look

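Of 112 groups of 4 libraries examined for the named genes, 6 held a library far from the other 3 by Dixon's test, where chance gives 5.6. In H2bc24, DKO replicate 1 read 481 normalized counts against 11.6 to 36.0 in the other DKO libraries. In Prox1, CDK8KO replicate 1 read 4.35, a level at the 3-read limit. VAV replicate 3, which was also rich in erythroid reads, was low in Clec4b2 (179.5) and in Spata13 (1483), and these values enter no departure against WT. VAV replicate 4 was high in H1f0 (1199), and CDK8KO replicate 3 was apart in Med13 (14935).

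The 21 genes that passed differ, by the test of the departure itself, in the effect of Cdk19 loss with Cdk8 intact and deleted. Their departures were 3.39 for Lipg, 3.30 for Chit1, 3.14 for Perp, 2.64 for Prox1, 2.34 for Acod1, 1.92 for Il17rb, 1.78 for Clec4b2, 1.78 for Dock9, 1.52 for Nav2, 1.42 for Spata13, 1.32 for Il4ra, 1.26 for Eml5 and 1.198 for Reck on the log2 scale. The lower genes had -7.52 for H2bc24, -3.91 for Asprv1, -2.68 for H1f0, -2.38 for Cd163, -2.37 for Fcnb, -2.31 for Vnn3, -2.09 for Nt5e and -1.87 for Cd5l.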

How the results depend on the processing

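Chit1, Perp, Clec4b2, Dock9 and Spata13 kept their calls and directions in all 31 alternatives. Asprv1, H1f0, Cd163 and Fcnb lost theirs only when the single losses were summed on the untransformed scale (adjusted p 0.633, 0.0833, 0.667 and 0.415), and Reck only without WT replicate 3. Over the 21 genes and 31 alternatives, 487 calls held and 162 were lost. The count of genes past the threshold was 98 (57 higher, 41 lower) with DESeq2, which gave no adjusted p for 55 genes and called all 21, and 18 with edgeR. It was 67 (44 higher, 23 lower) with VAV in place of WT, 34 (22 higher) with WT and VAV pooled and 34 (15 lower) with array weights. It was 11 (7 higher, 4 lower) without the 2 libraries rich in muscle transcripts, and 22 higher and 1 lower on the untransformed scale. Leaving out each library in turn gave 10 to 21 genes, 5 to 13 higher and 5 to 9 lower. With the replicate number as a block, 14 genes passed, of which 8 were higher and 13 are among the 21. Same-numbered libraries had deviations correlated at -0.27 to 0.31, over 0.1 in 6 of 36 pairs. Pairs of other numbers had -0.44 to 0.56, over 0.1 in 23 of 108, and 7 of 19 libraries were closest to their own number. The median was 0.008 for same-numbered pairs and 0.002 for the others. The highest same-numbered value, 0.31, joined CDK19KO replicate 4 and DKO replicate 4, the 2 libraries rich in muscle transcripts. These correlations neither establish nor exclude pairing by number. Signs reversed for Prox1 (-3.98 with VAV in place of WT, -1.14 pooled) and for genes of the kinase module, none of which passed. With VAV these were Med13l (0.0824), Med13 (0.20) and Med12 (0.0096), and pooled Med13 (0.0541). With the erythroid covariate they were Cdk8 (0.20), Cdk19 (-0.13) and Med12 (0.0504). Leaving out single libraries gave Med13 -0.21 to 0.0587 and Med12l -0.0310 to 0.50, with the sign reversed without CDK8KO replicate 3 for Med13 and without CDK8KO replicate 4 for Med12l. The cause was not tested for any of these changes. Depth limits Prox1, whose CDK8KO reads are at the 3-read limit.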
